A study of Mus musculus with 4 samples.

Results

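The genes described here encode the colony-stimulating factors and their close functional relatives: Csf1, Il34, Csf2, Il3, Csf3 and Kitl. A peak of open chromatin was counted as theirs when its centre lay inside one of these 6 genes, within 1 kb of one of its ends, or closer to its end than to that of any other protein-coding gene. This gave 68 of the 97699 peaks of the table, of which 23 belong to Csf1, 13 to Il34, 11 to Csf2, 3 to Il3, 1 to Csf3 and 17 to Kitl. The 6 genes were chosen by name for what they do to myeloid cells, but with the measured changes between the groups already known, so their changes and counts are a description and no test of the group was made. The cells were MC38/gp100, a mouse colon tumour line that carries the melanocyte antigen gp100. They grew for 5 days either in the solvent DMSO, with 2 libraries, or in 1 µM GSK3368712, a blocker of type I protein arginine methyltransferases, also with 2 libraries. No other allele or agent is labelled. Open chromatin was read by ATAC-seq, in which a transposase cuts and tags accessible DNA.

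Colony-stimulating factors are secreted proteins that keep blood-forming and myeloid cells alive and steer their growth and maturation. CSF1 and IL-34 are distinct proteins that share the receptor CSF1R on macrophages. GM-CSF, encoded by Csf2, and IL-3 signal through receptors with a common beta chain, G-CSF from Csf3 drives neutrophil output, and stem cell factor from Kitl binds the receptor KIT. Tumour cells can release several of them and thereby draw in and shape macrophages, monocytes and neutrophils. Arginine methyltransferases of type I place asymmetric dimethyl marks on histones and on many RNA-binding proteins.

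The authors' deposited table is the source of every level, change and adjusted p of a single peak given here, and it holds 1 mean per group and no value per library. Whether the libraries of the groups overlap at a peak therefore cannot be read. A level is a mean normalised read count per peak, a change is the log2 level under GSK3368712 minus that in DMSO, and adjusted p is the authors' own, from DESeq2 and adjusted over the whole table. A peak is called lower or higher at an adjusted p under 0.05, and counts as tested where the deposited adjusted p is under 1. Standard errors (SE) and 95% intervals were derived from each change and its p-value, so they carry the authors' model with them. Separate cultures are not stated for the libraries of either group, so the spread behind the p-values may be a technical one. Read depth per library is unknown. Epithelial genes checked as markers had few tested peaks at their ends in these cells. Of Epcam, Cdh1, Krt8, Krt18, Krt19, Cdx2 and Vil1, only Krt8 had a tested peak within 1 kb of a gene end, while all 7 had a tested peak assigned to them.

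Csf2 and Il3 lie side by side on chromosome 11, and the stretches before their start sites are shown because only one of them was covered by a peak. The 250 bases before each start are read 5′ to 3′ on the minus strand (RefSeq, GRCm38.p6, the assembly behind mm10), at chr11:54249900-54250149 for Csf2 and chr11:54267280-54267529 for Il3. Capitals mark matches on either strand to 6 motifs that were searched, namely AP-1 (TGANTCA), NF-kB (GGGANTTCC), ETS (GGAAGT), NFAT (TGGAAA), RUNX (TGTGGT) and C/EBP (TTGCNNAA).
Csf2: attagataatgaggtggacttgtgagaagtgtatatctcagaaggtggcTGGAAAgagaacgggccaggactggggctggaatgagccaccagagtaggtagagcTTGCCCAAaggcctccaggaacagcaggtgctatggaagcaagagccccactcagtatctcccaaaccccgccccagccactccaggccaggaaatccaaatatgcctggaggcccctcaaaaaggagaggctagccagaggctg
Il3: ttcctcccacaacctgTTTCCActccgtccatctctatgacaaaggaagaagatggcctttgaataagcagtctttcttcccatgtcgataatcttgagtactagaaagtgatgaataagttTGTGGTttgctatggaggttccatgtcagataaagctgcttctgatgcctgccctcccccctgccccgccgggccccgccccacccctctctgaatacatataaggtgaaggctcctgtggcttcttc

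A peak covered the 161 bases of the Csf2 stretch nearest the start, and no peak overlapped the Il3 stretch. The Csf2 stretch held an NFAT match outside that peak and a C/EBP match inside it. The Il3 stretch held an NFAT match on the opposite strand and a RUNX match. No 2 of these matches overlap. Among 27025 promoter stretches of the same length, 18.7% held the NFAT letters, 9.55% those of C/EBP, 14.2% those of RUNX, 6.87% those of AP-1, 1.42% those of NF-kB and 20.0% those of ETS. The promoter stretches of Csf1 and Kitl lay wholly under a peak, had a GC content of 56.4% and 69.2%, and held none of the 6 motifs. That of Kitl, chr10:100015571-100015820, runs past the start of the gene span at 100015615, so most of it lies inside the gene. Promoter sequences were matched for 4 of the 6 genes, and those of Csf3 and Il34 were not used here.

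Accessibility was lower under GSK3368712 at 11 of the 63 tested peaks of these genes, or 17.5%, where 6.09% of all tested peaks of the table were lower. At 0 of them it was higher by the authors' DESeq2 call, where 0.492% of all tested peaks were. At an unadjusted p under 0.05, 19 of these peaks were lower and 2 were higher, while over all tested peaks 14.3% were lower and 2.18% higher. The lower peaks belong to Csf1, Csf2 and Il34, with 3 each, and to Kitl, with 2. Neither Csf3, with 1 tested peak, nor Il3, with 3, had a called peak. The median change was -0.21 over these 63 peaks and -0.07 over all tested peaks. Changes had a negative sign at 50 of the 63 peaks, or 79.4%, against 62.3% in the table, and after scaling to library totals (taking off the log2 ratio of the groups' summed reads) at 42 of 63 against 49.9%. Other call rules gave fewer lower peaks. At an adjusted p under 0.01 there were 5 lower peaks against a rate of 3.49% in the table, and 3 against 1.31% with at least 1 log2 unit of change. With library totals 7 of 63 were lower against 3.61%, after centring on the median 7 of 63 against 3.81%, and with weaker peaks than the median left out 7 of 32 against 8.77%. In each of these 0 of the 6 genes' peaks were higher.

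**Figure D1:**
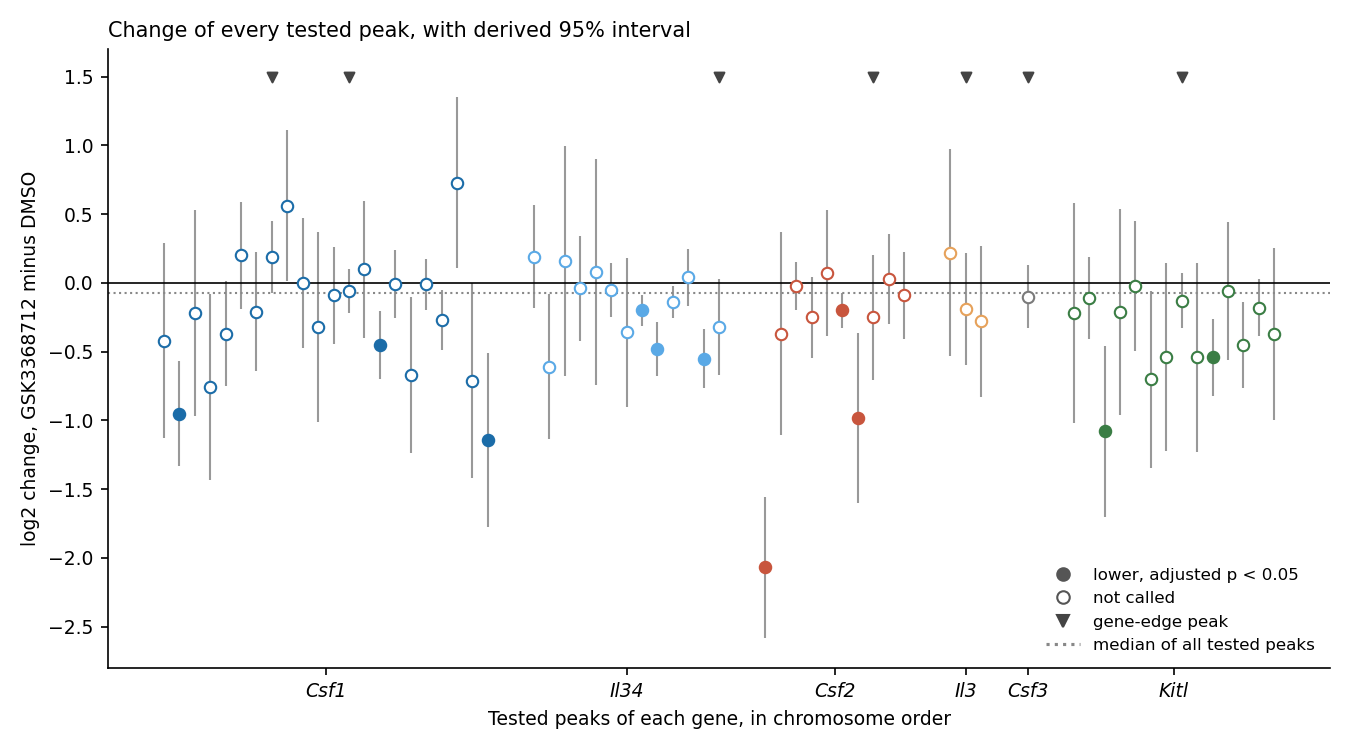
The log2 change (GSK3368712 minus DMSO) of each of the 63 tested peaks is plotted by gene in chromosome order, with its derived 95% interval. Filled points are the 11 lower peaks, triangles mark the 7 gene-edge peaks, none of which is filled, and the dotted line is the median of all tested peaks, -0.07.

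Csf1 encodes the main growth factor of macrophages and lies on the minus strand of chromosome 3 from 107741048 to 107760469. No change was called at its ends, while 3 peaks away from them were lower. The peak over the start, from 107759820 to 107760913, had 1418 normalised reads in DMSO and 1361 under the inhibitor in the authors' deposited table. Its change of -0.06 had an adjusted p of 0.844 and an interval from -0.22 to 0.10, and after scaling to library totals its sign turned, at 0.02. A peak over the 3′ end, from 107740523 to 107741060, went from 337.8 to 385.3 reads, a change of 0.19 with an adjusted p of 0.556 in the deposited table.

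The most clearly lowered Csf1 peak lay 8.37 kb beyond the 3′ end, at chr3:107732521-107732843. It fell from 231 to 119 reads in the authors' deposited table, a change of -0.95 (SE 0.20) with an adjusted p of 0.00012. Its next peak, 0.51 kb away, had a change of -0.22 there, with an interval from -0.97 to 0.53 that overlaps the first. A further lowered peak lay 14.9 kb before the start, at chr3:107774817-107776004, and went from 534 to 388 reads in the deposited table, with -0.45 (SE 0.13) and an adjusted p of 0.0107 that became 0.0701, with a change of -0.37, after scaling to library totals. The peak 1.1 kb from it had -0.01, with an interval from -0.26 to 0.24. The outermost Csf1 peak, 54.7 kb before the start at chr3:107814956-107815350, went from 93.1 to 42.2 reads in the authors' table, a change of -1.14 (SE 0.32) with an adjusted p of 0.0107. The first and the second of these lie inside the annotated span of the long noncoding gene Gm40121, which also covers Csf1 itself.

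Csf1 also had the only peaks of the 6 genes with a positive change at an unadjusted p under 0.05. They lay inside the gene and 42.1 kb before its start, with changes of 0.56 and 0.73 and adjusted p-values of 0.288 and 0.179 in the authors' deposited table. The first of these was called in 0 DMSO libraries and 2 inhibitor libraries. Over the 22 tested Csf1 peaks the change ran from -1.14 to 0.73, with a median of -0.21.

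Il34 encodes the alternative ligand of CSF1R and spans 64121 bp of chromosome 8, from 110741829 to 110805949. All of its 13 tested peaks had their centre inside the gene, where the gene table does not tell exons from introns. The one at the high-coordinate end is counted as a gene-edge peak. The 3 lower peaks sat within 16.8 kb of the high-coordinate end and were strong ones. The peak at chr8:110802761-110803584, 2.78 kb from that end, went from 744 to 508.5 reads in the authors' deposited table, with -0.55 (SE 0.11) and an adjusted p of 5.89e-05. At 15.5 kb, chr8:110790299-110790558 went from 923 to 662 reads in the deposited table, with -0.48 (SE 0.10) and an adjusted p of 0.000135.

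The strongest Il34 peak, at chr8:110788770-110789619, was lowered less. It had 3304 reads in DMSO and 2876 under the inhibitor in the authors' deposited table, a change of -0.20 (SE 0.06) with an adjusted p of 0.0137, which became 0.295, with a change of -0.12, after scaling to library totals. Its interval, -0.31 to -0.09, overlaps that of the peak 1.23 kb away, -0.68 to -0.28. Between these lowered peaks lay others that were not called. At chr8:110792906-110794244 the change was -0.14 with an adjusted p of 0.155, and at chr8:110794526-110794999 it was 0.04 with 0.924, in the deposited table. The peak at the high-coordinate end, from 110805825 to 110806017, went from 249 to 199.5 reads there, with -0.32 and an adjusted p of 0.37. The remaining Il34 peaks had changes from -0.61 to 0.19, and none was called. The one at -0.61, inside the gene, was called in 2 DMSO libraries and 0 inhibitor libraries and had an adjusted p of 0.192 in the authors' table.

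Csf2, which encodes GM-CSF, is a gene of 2630 bp on the minus strand of chromosome 11, from 54247270 to 54249899. It had the deepest loss of the 6 genes, far beyond its 3′ end. At chr11:54201446-54202264, 45.4 kb from the gene, 184 normalised reads in DMSO became 43.4 under the inhibitor in the authors' deposited table. This is a fall of 76.2%, or -2.07 log2 (SE 0.26, interval -2.58 to -1.56), with an adjusted p of 4.64e-12. By p-value it ranked 45 among 74791 tested peaks, and 7 tested peaks had a lower change. Of the 41182 tested peaks with a mean level as high or higher, 0 had a lower change. It was called as a peak in 2 DMSO libraries and in 1 inhibitor library, and was the only one of the 11 lowered peaks not called in all 4 libraries. Its centre lies within the spans of the noncoding genes Gm12223 and 4933405E24Rik, and the next protein-coding gene end after Csf2 is that of Il3, 63.2 kb away.

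The neighbours of this Csf2 site had changes nearer to 0. The peak 3.64 kb from it had -0.37, with an interval from -1.11 to 0.37 that does not reach that of the deep loss. The strong peak at chr11:54214383-54215364 had 1082 reads in DMSO and 1067 under the inhibitor in the authors' deposited table, a change of -0.02 with an adjusted p of 0.966. The remaining called peaks of Csf2 lay between that site and the gene. At chr11:54236768-54237476, 10.1 kb from the 3′ end, the level went from 88 to 44.6 reads in the deposited table, with -0.98 (SE 0.32) and an adjusted p of 0.0331. The strongest Csf2 peak, at chr11:54223999-54225031, went from 2195 to 1898 reads there, a change of -0.20 (SE 0.06) with an adjusted p of 0.0371. Neither of these last calls passed after scaling to library totals, where the first had a change of -0.90 with an adjusted p of 0.0787 and the second -0.12 with 0.387.

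Around the Csf2 start itself the log2 mean level over both groups was 7.0, near the median of 7.04 over all tested peaks. The peak over the start, at chr11:54249083-54250060, had 139 reads in DMSO and 117 under the inhibitor in the authors' deposited table, with -0.25 (interval -0.70 to 0.20) and an adjusted p of 0.703. A weaker peak near the 3′ end had 22.8 and 26.2 reads and was not tested. The peaks before the start, 4.43 and 7.18 kb from it, had changes of 0.03 and -0.09 in the deposited table, with adjusted p-values of 0.97 and 0.888.

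Il3 encodes a growth factor of early blood cells and mast cells and lies next to Csf2, on the minus strand from 54265085 to 54267279. It had 3 peaks, with 44.9 to 155 reads in DMSO, and none lay within 1 kb of its start. The one at its 3′ end, at chr11:54264512-54264997, had 155.4 and 137.2 reads in DMSO and under the inhibitor in the authors' deposited table, with -0.19 and an adjusted p of 0.771. The peaks 1.56 kb past the 3′ end and 2.36 kb before the start had changes of 0.22 and -0.28 there, with adjusted p-values of 0.883 and 0.738. Their intervals, from -0.53 to 0.97 and from -0.83 to 0.27, leave room for sizeable changes in either direction.

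Csf3, the gene of G-CSF, lies on chromosome 11 from 98700183 to 98703631 and had 1 peak, over its low-coordinate end. From 98699778 to 98700644 it had 630.3 normalised reads in DMSO and 588.1 under the inhibitor in the authors' deposited table. Its change of -0.10 had an interval from -0.33 to 0.13 and an adjusted p of 0.791.

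Kitl encodes stem cell factor and spans the plus strand of chromosome 10 from 100015615 to 100100416. Every one of its 14 tested peaks had a negative change as deposited, from -1.08 to -0.02, but 2 of the 14 passed the call, and after scaling to library totals 12 were negative. The peak over the start, at chr10:100015426-100016699, had 843.4 reads in DMSO and 770.7 under the inhibitor in the authors' deposited table, with -0.13 (interval -0.33 to 0.07) and an adjusted p of 0.621. Inside the gene, 17.3 kb from the start, chr10:100032519-100033345 went from 413 to 284 reads in the deposited table, with -0.54 (SE 0.14) and an adjusted p of 0.0051. A peak 69.8 kb before the start, at chr10:99945424-99946133, went from 87.4 to 41.1 reads there, with -1.08 (SE 0.32) and an adjusted p of 0.016. A peak 53 kb past the 3′ end had -0.45 and an adjusted p of 0.0664, just short of the call. The strongest decrease by size, -1.32 inside the gene, was in a peak of 26 against 10.4 reads that was not tested.

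**Figure D2:**
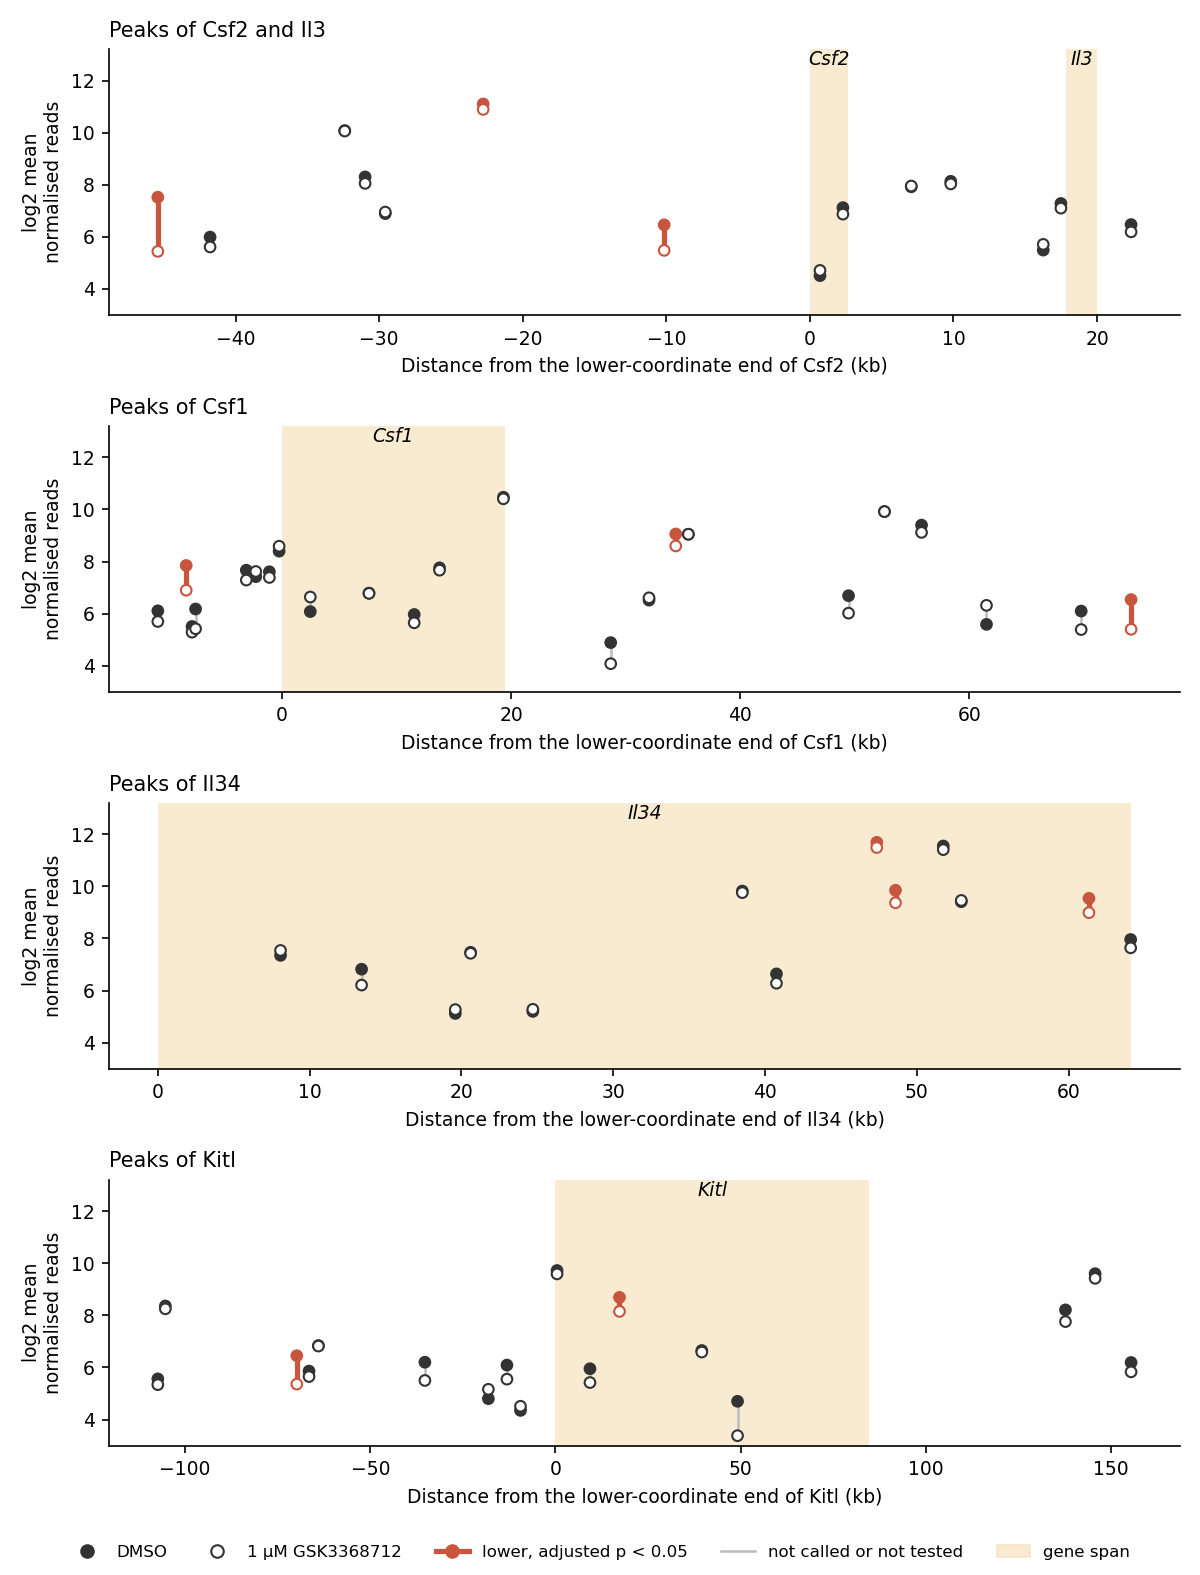
Each peak's log2 mean normalised reads in DMSO (filled) and under 1 µM GSK3368712 (open) is plotted against its distance in kb from the lower-coordinate end of Csf2, Csf1, Il34 or Kitl. Shading is the gene's span and red marks the 11 lower peaks; at Csf2 the site 45.4 kb away drops from 184 to 43.4 reads while the strong peak near it has 1082 and 1067.

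Peaks at the gene ends differ in how open they were. Of 7 tested gene-edge peaks 0 were lower, and with 1.54% of the table's gene-edge peaks lower, a count of 0 says nothing particular about these genes. Their changes ran from -0.32 at Il34 to 0.19 at the 3′ end of Csf1. In DMSO their levels per kb of peak, in decreasing order, were 1300 reads over the Csf1 start, 1290 at Il34, 727 at Csf3, 662 at Kitl, 628 at the Csf1 3′ end, 320 at Il3 and 142 over the Csf2 start. Under the inhibitor the Csf1 3′ end, at 716, stood above Csf3 and Kitl, at 678 and 605, and the rest kept their places. The order depends on the width of the peaks. The Il34 peak was 193 bp wide with 249 reads in DMSO, against 1094 bp and 1418 reads over the Csf1 start. By reads in DMSO it stood below Kitl, Csf3 and the Csf1 3′ end. Spread between libraries is not in the table, so neighbours in this order were not compared.

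Inside genes, 4 of 19 tested peaks were lower, or 21.1%, against 6.71% in the table, and between genes 7 of 37, or 18.9%, against 7.39%. By distance to the nearer end of the assigned gene, 2 of 17 peaks from 1 to 10 kb were lower, 7 of 29 from 10 to 50 kb and 2 of 10 beyond that. The table's shares in these ranges of distance to a gene end were 5.41%, 7.66% and 8.65%.

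The lowered peaks were not confined to weak sites. In the highest of 4 level quartiles, at 355 reads or more, 5 of 17 peaks of these genes were lower, against 8.92% of that quartile in the table. Among these 5, the strongest peaks of Csf2 and Il34 and a Csf1 peak lost the call under both other scalings, and the others were peaks of Il34. In the lowest, under 64.4 reads, 1 of 16 was lower, against 2.05%. The error of a change fell with level over the table, from a median SE of 0.38 in the lowest quartile to 0.11 in the highest, so small changes could be called at strong peaks and not at weak ones. The smallest called changes, -0.20, were at the strongest peaks of Csf2 and Il34. Of the 63 tested peaks, 46 were called as peaks in all 4 libraries, or 73.0% against 84.1% in the table, and 8 were called in more DMSO than inhibitor libraries against 4 the other way.

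**Figure D3:**
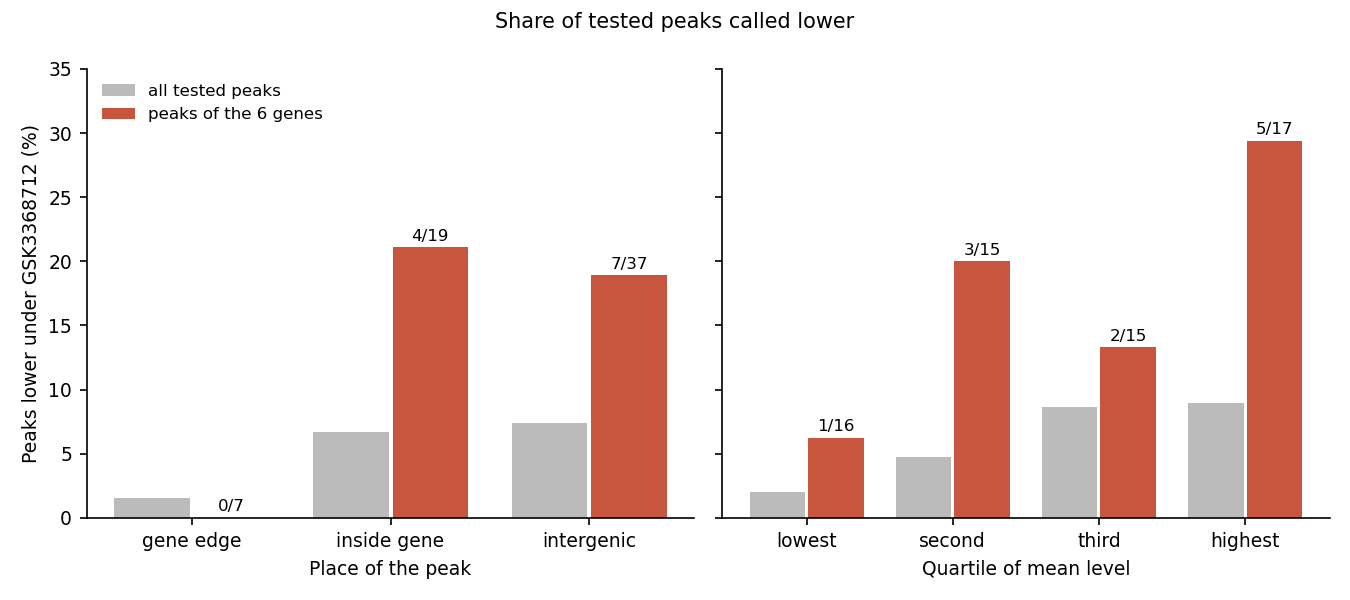
Bars give the percentage of tested peaks called lower as deposited, by place and by quartile of mean level, for all tested peaks (grey) and for the peaks of the 6 genes (red, with counts above). Red stands at 0 of 7 at gene edges and above grey in the other bins.

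**Figure D4:**
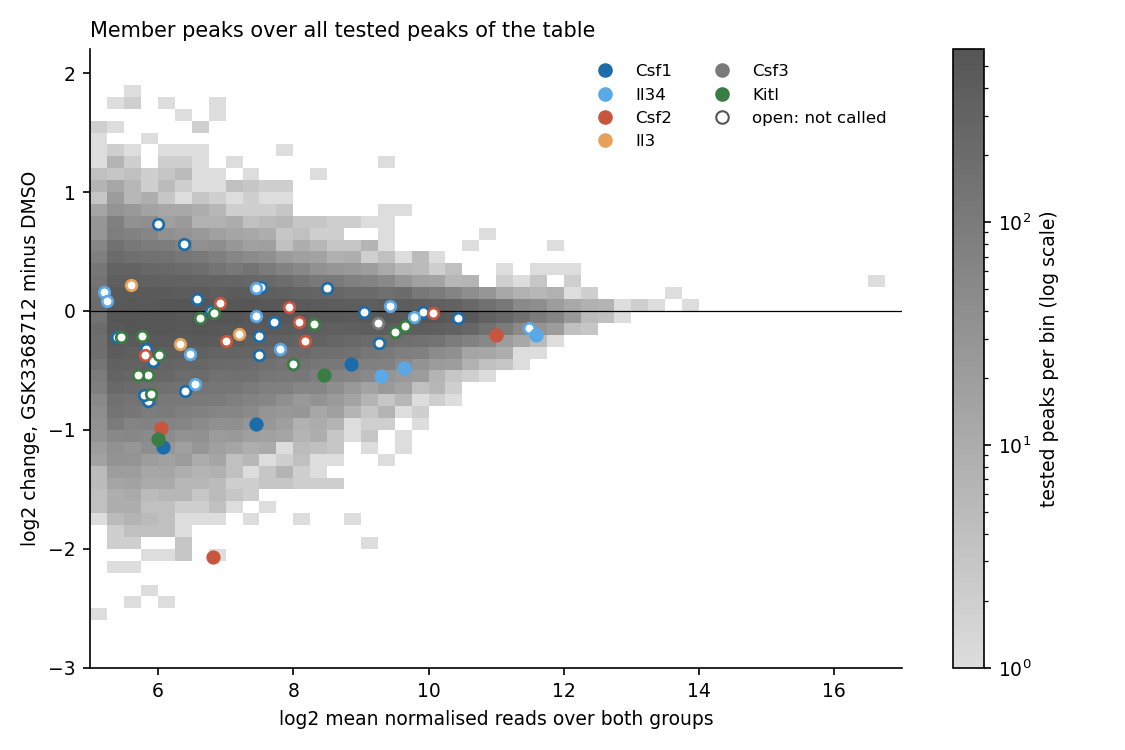
The log2 change of each peak of the 6 genes is plotted against its log2 mean normalised reads, over a grey density of all 74791 tested peaks. Filled points are lower peaks; the Csf2 site at -2.07 lies at the lower margin of the density for its level.

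Summed over the tested peaks of a gene, normalised reads went from 4707.7 in DMSO to 4116.3 under the inhibitor at Csf2, a log2 ratio of -0.19. The log2 ratio was -0.13 at Csf1, -0.19 at Il34, -0.14 at Il3, -0.10 at Csf3 and -0.26 at Kitl. Over 16235 genes with a tested peak the median was -0.06 and the quartiles were -0.15 and 0.02, so that Csf2, Il34 and Kitl lay below the lower quartile. More of the reads lost at Csf2 came from its strongest peak than from the deepest loss. That peak, 22.8 kb past the 3′ end, lost 297 reads, or 50.3% of the net difference, and the site with -2.07 lost 140, or 23.7%. At Il34 the strongest peak likewise made up 32.9% of the net difference of 1300 reads.

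A gene with many peaks has many chances of a lower one, and these counts stand beside those of other genes with a similar number of tested peaks. Of 170 other genes with 20 to 24 tested peaks, as Csf1 has, 81.2% had a lower peak, and 32.4% had 3 or more. The share with as many lower peaks was 31.8% of 440 genes for Kitl, 9.75% of 523 genes for Il34 and 5.35% of 991 genes for Csf2. Among 3730 genes with 1 tested peak, as at Csf3, 1.88% had a lower one, and among 2338 with 3, as at Il3, 10.3% did.

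The bounds of the loci come from the nearest-end rule, and changes on either side of a bound were close in some places and apart in others. Just outside the Csf1 peaks, a peak given to Ahcyl1 had -0.38 with an adjusted p of 0.0491, and one given to Eps8l3 had -0.37 with 0.0122, in the authors' deposited table. The outermost Csf1 peaks had -0.42 and -1.14. Beyond the deep loss at Csf2 the next peak, given to P4ha2, had -0.37 with an adjusted p of 0.3 there. The outermost Kitl peaks, at -0.22 and -0.37, faced peaks of Csl and Tmtc3 at -1.08 and -0.48, with adjusted p-values of 0.0504 and 0.164. These were far apart, with the Kitl peaks 107.4 and 70.7 kb from Kitl and those of Csl and Tmtc3 266.7 and 360.4 kb. At Il34 the outermost peaks had 0.19 and -0.32, and the first outside, of Mtss2 and Sf3b3, had 0.55 and -0.10. The single Csf3 peak stood between peaks of Psmd3 and Med24 at 0.04 and -0.06, and the outermost Il3 peak before Acsl6, at -0.28, faced one at 0.03 that was not tested.

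The peaks most like the deep Csf2 loss, by their log2 levels in DMSO and under the inhibitor, lay near Myof, Krr1, Ddah1, Cradd and Crtc3, 12.8 to 195 kb from a gene end. In the authors' deposited table they went from between 144 and 177 reads to between 42.2 and 53.8, with changes from -1.77 to -1.59. Likeness was measured over 2 conditions only, and the nearest of them, at Myof, was 0.30 log2 units from the Csf2 peak.

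Receptors of these factors are mostly made by blood cells, and the share of lower peaks at their genes was near that of the whole table. Of 9 receptor genes, 7 had a tested peak, and 1 of these had a lower one. It was Sdc1, which encodes syndecan-1, a surface proteoglycan described as a partner of IL-34, with 3 lower peaks among 14, and the clearest of them went from 516 to 244 reads in the authors' deposited table, or -1.09 (adjusted p = 4.99e-12). Over the list 3 of 40 tested peaks, or 7.5%, were lower, beside 6.09% of all tested peaks, and 0 were higher, beside 0.492%. Csf1r, Csf2ra, Csf2rb, Csf2rb2, Csf3r and Il3ra had no called peak, and Kit and Ptprz1 had no tested peak. Of 19 genes that signal below these receptors, 5 had a lower peak and 1 a higher one, with 7 of 140 tested peaks lower, or 5.0%, which is also near the 6.09% of the table. The genes with a called peak were the kinase gene Jak1 at -1.79, Socs3, a feedback inhibitor of cytokine signalling, at -0.57, the adaptor genes Grb2 and Shc1 at -0.49 and -0.18, and Pik3ca at -0.61, while a peak near Pik3r1 had 0.89, in the authors' deposited table.

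At the other genes of the cytokine cluster around Csf2 and Il3 the share of lower peaks was that of the background. Of 67 tested peaks of 11 listed genes, 4 were lower, or 5.97% beside 6.09% in the whole table, and 0 were higher. They belonged to Slc22a4, a solute carrier gene with 3 of them, and to the transcription factor gene Irf1, which in the authors' deposited table had -0.98 and -1.20 at their clearest peaks. Il5, Il13 and Rad50 had no called peak, and Il4 had no tested peak.

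Genes of factors known to control colony-stimulating factor transcription or transcript decay had lower peaks at 39 of 294 tested peaks, or 13.3%, beside 6.09% in the table. Of 22 such genes, 16 had a lower peak and 2 a higher one, and the number of tested peaks per gene ran from 3 to 38. With only peaks within 50 kb or inside the gene, 13 had a lower one. In the whole table, 61.4% of 523 genes with 12 to 14 tested peaks had a lower one. Among NF-kB genes Rel had -1.09 and Nfkb1 -0.59, with adjusted p-values of 3.16e-07 and 8.06e-05 in the authors' deposited table, while Nfkb2 and Rela had no called peak. Cebpb had 7 lower peaks among 26 and Runx1 had 6 among 38. The clearest loss at Cebpd was -1.26 in the deposited table, 95.1 kb from the gene. Further transcription factor genes with a lower peak were Nfatc1 at -0.68, Nfatc2 at -0.61, Ets1 at -0.57, Ets2 at -0.64, Fos at -0.64 and Junb at -0.31, each at its clearest peak in the authors' deposited table. The clearest peaks of Cebpb, 52.3 kb from the gene, and of Runx1, inside it, had -0.65 and -0.64 there. The genes of the Zfp36 family, whose proteins bind and destabilise AU-rich cytokine transcripts, had -0.25 at Zfp36, -0.55 at Zfp36l1 and -0.54 at Zfp36l2 in the deposited table. Those peaks lay 2.34, 60.9 and 109 kb from the gene. Fosl1, Fosl2, Sp1 and Hif1a had no called peak. Zc3h12a, which encodes the RNase Regnase-1, had 1 peak in each direction, with its clearest at -0.67, and so did Jun, with a gene-edge peak of 534 reads in DMSO at 0.73 in the authors' deposited table. A stronger gene-edge peak of Jun, with 5630 reads in DMSO, had 0.02 and an adjusted p of 0.927 there.

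Other secreted factors that attract myeloid cells also had lower peaks. Of 15 genes 14 had a tested peak and 8 a lower one, and 19 of 84 tested peaks, or 22.6%, were lower and 0 higher, beside 6.09% and 0.492% of all tested peaks. The 8 genes became 5 with library totals and 5 after centring on the median. They became 5 at an adjusted p under 0.01 and 3 with at least 1 log2 unit of change. Lif, a cytokine of the IL-6 family, had 6 lower peaks among 16, and both tested peaks of Il1a were lower, the clearer at -1.37 in the authors' deposited table (adjusted p = 9.15e-06). The vascular growth factor gene Vegfa had 3 among 18, and Cxcl5, a neutrophil attractant, had 2 among 5, with -0.77 and -0.32 at their clearest peaks in the deposited table. The monocyte attractants Ccl2 and Ccl7 had 3 of 9 and 1 of 2 tested peaks lower, the clearest at -0.84 and -0.56 in the authors' deposited table. Single lower peaks of Il6 and Tgfb1 had -1.71 and -0.49 there, and the clearest of Lif had -0.39. That of Il6 lay 92.5 kb from the gene. The gene-edge peak of Il6, with 605 reads in DMSO, had -0.13 and an adjusted p of 0.712 there. Cxcl12 had no tested peak. Il1b, Mif, Cx3cl1, Ccl5, Cxcl1 and Cxcl2 had no called peak. The median change over these peaks was -0.20, beside -0.21 at the colony-stimulating factor genes.

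Markers of blood cells were checked because such cells would carry their own open cytokine loci. Ptprc had 7 tested peaks, Csf1r had 4, Itgam and Cd3e had 3 each and Cd14 had 1. By the authors' DESeq2 call 0 of these were lower and 0 higher, a count too small to differ visibly from the 6.09% of the table, and Adgre1 had no tested peak. Gene-edge peaks of Itgam, Cd14, Csf1r and Cd3e had between 45.6 and 787 reads in DMSO in the authors' deposited table, with the highest at Cd14. For endothelial and fibroblast genes, 3 of 52 tested peaks were lower, or 5.77% beside 6.09% in the table, and 2 were higher, among Cdh5, with -0.73 at its clearest, and Dcn, with 1.28, in the authors' deposited table. The clearest peaks of Cdh5 and Dcn lay 79.5 and 51.6 kb from the gene. For the epithelial genes named above, 4 of 34 were lower, or 11.8%, and 0 higher, with -0.28 at Epcam, -0.92 at Cdh1 and -0.27 at Cdx2 in the authors' deposited table. The Epcam peak lay 64.6 kb from the gene. Whether other cells contribute to the changes was not tested.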

How the data were processed

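Per the labels' protocols, 100000 cells per group were tagmented with a Nextera kit, amplified over 10 PCR cycles and sequenced as paired reads of 42 nt. Per the submitters' processing notes, the build was mm10 and the software DiffBind 2.8.0, DESeq2, MACS2 2.1.1.20160309, Picard 1.113 and HISAT2 2.1.0, with no settings or DESeq2 version stated there. The authors deposited log2 mean normalised reads per group, a log2 fold and a p-value with its adjusted p-value per peak, as the file header names them, together with the number of libraries in which each peak was called. Of the planned routes, the one for group means with the authors' own p-values applied. The Benjamini-Hochberg adjustment recomputed over the 74791 peaks tested was within 2% of the deposited value at 74791 of them.

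Here the fold was turned to GSK3368712 minus DMSO, and an SE was taken as the change over the normal quantile of p. Where the change was under 0.1 or that quantile under 0.25, the median SE of peaks of like level was used, over 50 bins. Genes were placed with the RefSeq table of GRCm38.p6, which gives spans only. Strand came from the promoter table. Scaling to library totals took off -0.079 (the groups' summed normalised reads over peaks) and median centring -0.07, and p was recomputed. These steps were run on simulated data whose p-values followed the same normal model. That checks how the steps work and not whether the model holds for these data. Work was done in Python 3.11.15 with pandas 2.3.3 and scipy 1.17.1.

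The genes, the lists and the tests were chosen with earlier results of these data known. The text names every gene-edge and called peak of the 6 genes, each gene's strongest and smallest-p peak, and for listed genes the tested peak with the smallest adjusted p-value; other peaks named were chosen after their values were seen. One gene of the blood cell marker list is not reported here.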

Additional observations from a re-analysis of the deposited data

How the results depend on the processing

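Both other scalings took the same amount, -0.079 or -0.07, off every change, and the smallest called change was -0.20. The direction of the 11 lowered peaks could therefore not turn, and 7 of them stayed called under each. The Csf1 peak 14.9 kb before the start, the Csf2 peaks at -0.98 and -0.20 and the strongest Il34 peak lost the call under both. By construction the shift made each of these changes smaller in size while its SE was kept. Of the 63 tested peaks of the 6 genes, 5 were lower at an adjusted p under 0.01 and 3 with at least 1 log2 unit. With library totals 7 were lower, after median centring 7, and at or above the median level 7 of 32. Within 50 kb or inside the gene 9 of 53 were lower, and no share of the whole table was computed for that setting. Higher peaks stayed at 0 in each, which says little where 0.492% of all tested peaks were higher as deposited. Among the 74791 tested peaks of the whole table the lower ones numbered 2608, 981, 2698 and 2848 in the first 4 of these settings. The higher ones numbered 173, 78, 617 and 576. Of the 9 receptor and 19 signalling genes, with 180 tested peaks, 7 had a changed peak, and 2 with at least 1 log2 unit. The shares of lower peaks on these lists, 7.5% and 5.0%, were near the 6.09% of all tested peaks. The change over the Csf1 start turned to 0.02 with library totals and 0.01 after centring. The first 2 settings ask for more by construction. Leaving out a library could not be run on group means. No paired analysis was possible because the columns hold group means with no replicate numbers. Level limits what could be called, and depth per library is unknown.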
